A study of Mus musculus with 6 samples.

Results

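The CD8 and cytotoxic effector genes are 10 genes taken by their symbols from a table of 54532 listed genes: Cd8a, Cd8b1, Gzma, Gzmb, Gzmk, Prf1, Nkg7, Eomes, Ifng and Runx3. They were compared between infarcted hearts of 3 wild-type (WT) and 3 Crlf2-/- mice, collected on day 7 post-MI as 1 RNA library per mouse. Crlf2 encodes TSLPR, the receptor chain that binds thymic stromal lymphopoietin (TSLP), and the comparison addresses how cardiac gene expression differs when this receptor is lost. In both groups the left anterior descending coronary artery was permanently ligated to induce MI, and RNA came from the infarcted and surrounding tissue.

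Both groups carry the C57BL/6 strain label, which the study's methods give as C57BL/6J. The methods describe the purchased mice as young adult males and state neither age nor sex for the Crlf2-/- mice. C57BL/6J mice were bought from a breeder and the Crlf2-/- mice were generated by another company. The methods do not state whether the sequenced WT mice were purchased ones, so genotype and a possible difference in supplier cannot be told apart. The knockout is not restricted to a cell type by any label. All 6 hearts were ligated, and no unligated heart was analysed here.

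CD8 is a coreceptor made of an alpha and a beta chain, which binds MHC class I beside the T cell receptor on cytotoxic T cells. These cells kill by releasing granules in which perforin opens the way for granzymes, serine proteases that trigger death of the target cell, and they secrete interferon gamma. Natural killer (NK) cells carry much of the same granule machinery without CD3, and both kinds of lymphocyte enter the heart after MI. In bulk tissue, fewer cells of a type and less RNA per cell cannot be told apart.

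Values were deposited as FPKM, which are fragments scaled to the length of the gene and the size of the library, and the fragments behind each value were recovered from it. Listed genes held 18508646 to 19682428 fragments per library. The targeted gene Crlf2 had 26.6, 25.1 and 21.6 FPKM in the WT libraries and 13.2, 18.7 and 19.8 FPKM in the Crlf2-/- libraries. Crlf2 transcripts were thus present in all 3 Crlf2-/- libraries at a lower level without overlap (log2 fold change -0.52, SE 0.17, adjusted p = 0.521), and their exons cannot be read from values per gene. Cardiomyocyte markers were abundant in every library, whereas 10 retina markers, checked because an extraction note in the labels names that tissue, had at most 10 fragments each and Rpe65, Crx and Nrl were at 0.

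In every library of Crlf2-/- hearts, 7 members were lower than in WT: Cd8a, Cd8b1, Gzma, Gzmb, Gzmk, Nkg7 and Ifng. The FPKM of the 10 genes together summed to between 25.2 and 29.7 in WT and between 11.5 and 14.3 in Crlf2-/- libraries. Eomes lay higher in all 3 Crlf2-/- libraries, and Prf1 and Runx3 overlapped between the groups. None of the 9 members that could be tested passed an adjusted p of 0.05 with an absolute log2 fold change of 0.5 (limma on log2(FPKM + 0.1), Benjamini-Hochberg adjustment over 15520 genes), where 0.0129% of all genes tested did; limma's voom on the fragments also called 0 of the 9. At an unadjusted p under 0.05, 6 of the 9 tested members were lower and 0 were higher, where 3.36% of all genes tested were lower and 3.22% higher at that level. Without Crlf2-/- replicate 2, or with at least 10 fragments in every library, Eomes was higher at that level. The adjusted p of these 6 ranged from 0.0778 to 0.216 and their unadjusted p from 4.62e-05 to 0.00107. All Crlf2-/- libraries lay below all WT libraries for 6 of the 9 tested members, against 6.45% of all genes tested, and above for 1, against 5.24%. Gzmk passed the filter on low genes only through its WT libraries, and the counts over the 9 are a description. Their median log2 fold change was -1.11, and that of all genes tested was -0.0042. Fold changes on the log2(FPKM + 0.1) scale understate the change of low genes. For any single gene the smallest two-sided p of an exact permutation test with 3 mice against 3 is 0.1.

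**Figure D1:**
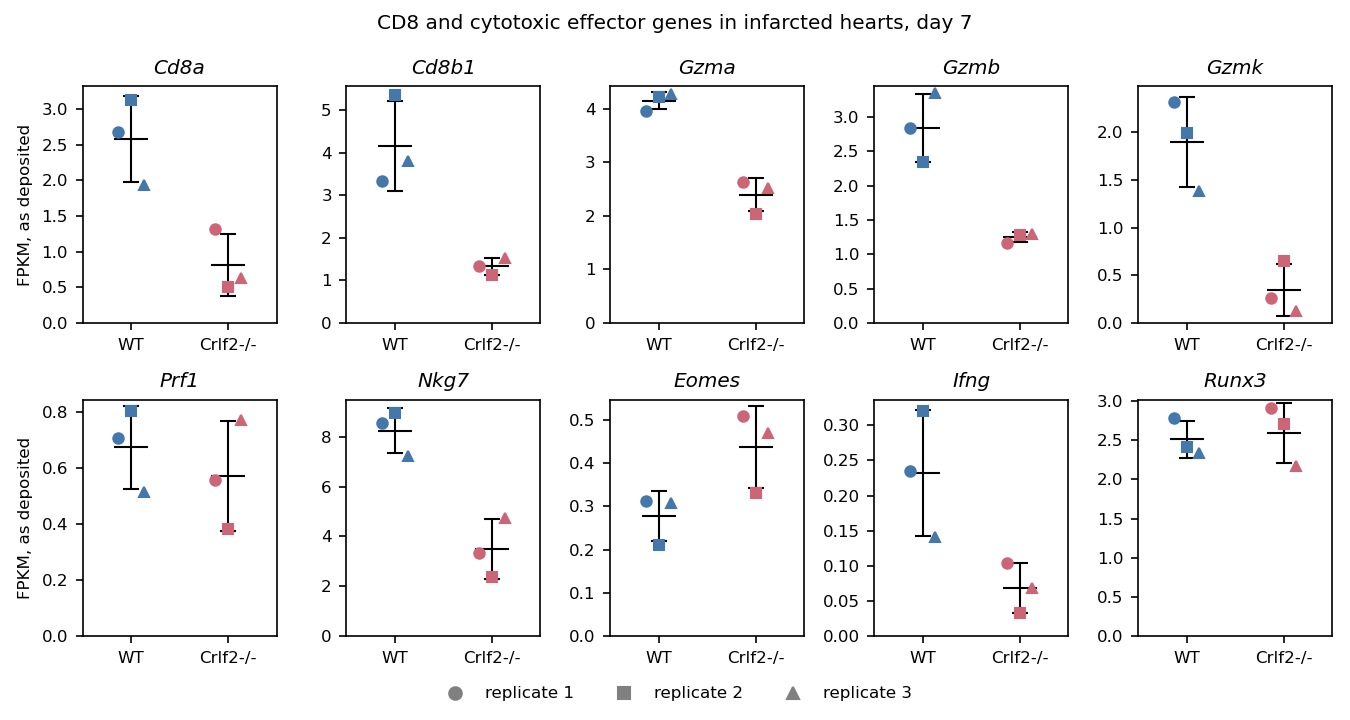
FPKM as deposited (y axis, from 0, with a scale of its own in each panel) of the 10 genes in 3 WT libraries (blue) and 3 Crlf2-/- libraries (red), where symbols mark the replicate number, long bars the mean and error bars the SD. In 7 panels all red points lie below all blue points, in Eomes they lie above, and in Prf1 and Runx3 they overlap.

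Both chains of the CD8 coreceptor were lower in Crlf2-/- hearts, with means at 31.7% (Cd8a) and 32.0% (Cd8b1) of the WT mean. Cd8a (ENSMUSG00000053977), the alpha chain, lies on chromosome 6 from 71373427 to 71379173 in GRCm38, and Cd8b1 (ENSMUSG00000053044), the beta chain, lies 35.9 kb away from 71322788 to 71337494. Cd8a had 2.67, 3.13 and 1.94 FPKM in WT and 1.31, 0.507 and 0.634 FPKM in Crlf2-/- hearts, from 224, 247 and 154 fragments against 106, 43 and 52. The highest Crlf2-/- library of Cd8a was replicate 1, which still lay below the lowest WT library, replicate 3. Cd8a had a log2 fold change of -1.62 (SE 0.33, adjusted p = 0.216). With voom and without WT replicate 3, a fit added after the data had been seen, Cd8a passed both thresholds (adjusted p = 0.0380, where fits that left out another library with limma or voom reached up to 0.670). Cd8b1 had 3.34, 5.35 and 3.79 FPKM in WT and 1.34, 1.13 and 1.53 FPKM in Crlf2-/- hearts. Its 3 Crlf2-/- libraries lay close together and far from the lowest WT library. The log2 fold change of Cd8b1 was -1.55 (SE 0.20, 95% interval -2.01 to -1.10), and its adjusted p of 0.0778 was the smallest among the members. Cd8b1 ranked 7 by p among the 15520 genes tested. With pooled fragments, Crlf2-/- hearts held 0.315 times the Cd8a of WT hearts (95% interval 0.267 to 0.369) and 0.320 times the Cd8b1 (0.262 to 0.390); these intervals cover counting error only.

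The ratio of the alpha to the beta chain did not separate the groups. It was 0.801, 0.586 and 0.511 in WT and 0.982, 0.450 and 0.416 in Crlf2-/- libraries on the FPKM scale. On the log2 scale the ratio differed by -0.13 (exact permutation test, two-sided, p = 0.7, 3 libraries against 3), and became 0.06 without WT replicate 1, 0.04 without Crlf2-/- replicate 2 and 0.10 without Crlf2-/- replicate 3. Against Cd4, the coreceptor of helper T cells, Cd8a stood differently. Cd4 averaged 1.44 ± 0.300 FPKM in WT and 1.46 ± 0.341 FPKM in Crlf2-/- hearts (SD, n = 3 each). The FPKM ratio of Cd8a to Cd4 was 1.51, 2.38 and 1.60 in WT and 1.09, 0.274 and 0.476 in Crlf2-/- libraries, so that the groups did not overlap. The log2 difference of this ratio was -1.78 (exact permutation test, two-sided, p = 0.1, adjusted to 0.3 over the 12 ratios tested). Macrophages can also carry Cd4, and its source among cell types was not tested. Other CD4 lineage genes did not all hold their level as Cd4 did. Icos had 54, 49 and 26 WT fragments against 19, 10 and 13 in Crlf2-/- libraries (log2 fold change -1.22, adjusted p = 0.315). Zbtb7b had a log2 fold change of 0.10. Ctla4, Cd40lg and Foxp3, named after their values were seen, were not tested. Ctla4 had 5, 2 and 3 WT fragments against 0 in each Crlf2-/- library. Cd40lg had 8, 5 and 1 against 0, 1 and 3, and Foxp3 6, 3 and 1 against 9, 1 and 1.

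Of the granule genes among the members, Gzma, Gzmb, Gzmk and Nkg7 were lower in all Crlf2-/- libraries, and Prf1 overlapped between the groups. Gzma (ENSMUSG00000023132), granzyme A, lies on chromosome 13 (minus strand, 113093825 to 113100981). It had 3.97, 4.22 and 4.27 FPKM in WT and 2.64, 2.05 and 2.51 FPKM in Crlf2-/- hearts. The WT libraries differed by less than counting error gives, with a coefficient of variation of 3.88% where 92 to 94 fragments per library give 10.4%. Gzma differed by -0.77 on the log2 scale (SE 0.13, adjusted p = 0.149), the smallest difference among the 6 members with an unadjusted p under 0.05. Gzmb (ENSMUSG00000015437), granzyme B, the caspase-activating protease, lies on chromosome 14 (minus strand, 56258838 to 56262260). Its WT libraries had 2.84, 2.35 and 3.34 FPKM and its Crlf2-/- libraries had 1.16, 1.28 and 1.30 FPKM. The Crlf2-/- values of Gzmb lay close together, below the lowest WT value (log2 fold change -1.11, SE 0.17, adjusted p = 0.109).

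Gzmk, a granzyme of memory and early effector T cells, had the lowest ratio of Crlf2-/- to WT fragments among the 9 tested members. It had 2.31, 1.99 and 1.38 FPKM in WT and 0.260, 0.648 and 0.128 FPKM in Crlf2-/- hearts, resting on 74, 60 and 42 fragments against 8, 21 and 4. Among the Crlf2-/- libraries, replicate 2 alone reached 10 fragments. The log2 fold change of Gzmk was -2.31 (SE 0.42, adjusted p = 0.1497) and became -1.11 with a pseudocount of 1, where that of Cd8b1 was -1.13, and the pooled ratio of Crlf2-/- to WT was 0.183 (95% interval 0.122 to 0.267, counting error only). Gzmk (ENSMUSG00000042385) spans chromosome 13 (minus strand, 113171608 to 113225908), 70.6 kb from Gzma, and overlaps Esm1 on the plus strand, which had up to 464 fragments in a library. Whether the authors counted by strand is not given in the sources used here, and without strand fragments in the overlap cannot be told apart.

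Nkg7, a membrane protein of cytotoxic granules, was the most abundant member per length in both groups. Its level was 8.55, 8.94 and 7.21 FPKM in WT and 3.35, 2.39 and 4.76 FPKM in Crlf2-/- hearts. The highest Crlf2-/- library, replicate 3, stayed below the lowest WT library (log2 fold change -1.25, SE 0.23, adjusted p = 0.1497). Nkg7 (ENSMUSG00000004612) lies on chromosome 7 from 43437073 to 43438249. Prf1 (ENSMUSG00000037202), the pore-forming perforin, lies on chromosome 10 from 61297833 to 61304680 and had 0.706, 0.804 and 0.513 FPKM in WT and 0.558, 0.382 and 0.773 FPKM in Crlf2-/- hearts. Crlf2-/- replicate 3 held as much Prf1 as the WT libraries, and replicate 2 held the least of all 6. The log2 fold change of Prf1 was -0.23 (SE 0.28, adjusted p = 0.988), with a 95% interval of -0.86 to 0.41 that holds both no difference and a fall of the size seen in Gzma.

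The start regions of the granule genes, which lie on separate chromosomes or far apart, are shown as a description. RefSeq promoter windows of GRCm38.p6 were present for 9 of the 10 members, and 2 short motifs bound by the factors of this programme were searched on both strands: the RUNX core TGTGGT (reverse complement ACCACA) and the T-box core AGGTGT (reverse complement ACACCT). Capitals mark these matches, none of which overlap, and the bases before the RefSeq start are printed 5′ to 3′ on the strand of the gene. The Gzmk window lies inside the listed span of that gene (113171608 to 113225908), so its RefSeq start differs from the listed one.
Gzma, chr13:113100982-113101231, minus strand: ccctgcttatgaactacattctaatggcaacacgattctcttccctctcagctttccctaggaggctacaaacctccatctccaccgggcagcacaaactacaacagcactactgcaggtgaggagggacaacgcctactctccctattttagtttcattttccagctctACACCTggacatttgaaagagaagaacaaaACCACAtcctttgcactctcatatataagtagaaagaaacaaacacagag
Gzmb, chr14:56262335-56262584, minus strand: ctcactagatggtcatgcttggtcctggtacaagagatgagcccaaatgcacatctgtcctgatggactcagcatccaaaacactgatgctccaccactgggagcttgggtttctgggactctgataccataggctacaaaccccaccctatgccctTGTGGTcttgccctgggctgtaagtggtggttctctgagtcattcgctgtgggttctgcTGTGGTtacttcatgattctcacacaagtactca
Gzmk, chr13:113180966-113181215, minus strand: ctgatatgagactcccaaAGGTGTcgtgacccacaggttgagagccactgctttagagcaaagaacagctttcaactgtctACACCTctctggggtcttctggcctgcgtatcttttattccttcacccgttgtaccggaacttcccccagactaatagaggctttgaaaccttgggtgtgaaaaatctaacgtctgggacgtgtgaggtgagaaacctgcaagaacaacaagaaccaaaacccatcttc
Nkg7, chr7:43436888-43437072, plus strand: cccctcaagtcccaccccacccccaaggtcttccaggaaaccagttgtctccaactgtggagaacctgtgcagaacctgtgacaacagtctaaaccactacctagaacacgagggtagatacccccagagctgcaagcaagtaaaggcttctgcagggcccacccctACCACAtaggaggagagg
Prf1, chr10:61297586-61297832, plus strand: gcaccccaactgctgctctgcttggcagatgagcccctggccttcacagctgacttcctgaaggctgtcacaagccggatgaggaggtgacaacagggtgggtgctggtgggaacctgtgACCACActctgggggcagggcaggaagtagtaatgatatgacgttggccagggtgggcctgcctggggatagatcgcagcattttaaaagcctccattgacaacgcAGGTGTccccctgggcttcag

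The RUNX core stood in the windows of Gzma, Gzmb, Nkg7, Prf1 and Runx3, and the T-box core in those of Gzma, Gzmk, Nkg7 and Prf1. In Gzma they began 50 and 80 bases before the RefSeq start, in Gzmb the RUNX core began at 93 and again at 34 bases, and in Gzmk the T-box core began at 232 and 169 bases. In Nkg7 the RUNX core began at 83 bases and a T-box core at 14 bases, the latter downstream of the stretch printed. In Prf1 the RUNX core began at 130 and the T-box core at 24 bases. Of the 10 windows of members, 5 held the RUNX core and 4 the T-box core, while 14.0% and 11.8% of all 32851 windows did. Prf1 held both motifs and overlapped between the groups, while Gzmb held RUNX alone and Gzmk T-box alone and both were lower. The windows of Cd8a and Ifng, which were lower, held neither motif, and nor did that of Eomes, which was higher. Whether the motifs bear on the differences was not tested. These letter matches are a description and show no binding.

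Ifng, interferon gamma itself, was at the limit of detection. The WT libraries held 7, 9 and 4 fragments of it and the Crlf2-/- libraries 3, 1 and 2, or 0.235, 0.321 and 0.141 FPKM against 0.104, 0.0331 and 0.0685 FPKM. All 3 Crlf2-/- libraries lay below all 3 WT libraries, but with 20 fragments against 6 the pooled ratio of 0.293 had a 95% interval of 0.0964 to 0.758 from counting error alone. Ifng did not reach the filter of 10 fragments in 3 libraries. In the fit without a filter its log2 fold change was -0.96 (adjusted p = 0.882). Ifng (ENSMUSG00000055170) lies on chromosome 10 from 118441046 to 118445892.

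The transcription factors Eomes and Runx3 did not share the lower levels of Gzma, Gzmb and Gzmk. Eomes (ENSMUSG00000032446), a T-box factor of CD8 memory and NK cells, lies on chromosome 9 from 118478212 to 118486132. It had 0.314, 0.211 and 0.308 FPKM in WT and 0.510, 0.330 and 0.470 FPKM in Crlf2-/- hearts, so that the lowest Crlf2-/- library lay just above the highest WT library. Eomes differed by 0.51 on the log2 scale (SE 0.24, 95% interval -0.05 to 1.06, adjusted p = 0.807) and rested on 77 WT and 123 Crlf2-/- fragments. Its unadjusted p was 0.0687 and became 0.0356 without Crlf2-/- replicate 2 and 0.0496 when every library had to hold at least 10 fragments. Runx3 (ENSMUSG00000070691), which maintains the CD8 lineage and is also active in myeloid cells, lies on chromosome 4 from 135120652 to 135177990. Its values were 2.78, 2.42 and 2.34 FPKM in WT and 2.91, 2.71 and 2.17 FPKM in Crlf2-/- hearts, with a Crlf2-/- library at either end of the range. Without WT replicate 3 the small difference of Runx3 became -0.0039, and without Crlf2-/- replicate 1 it became -0.04. The log2 fold change of Runx3 was 0.04 (SE 0.15, 95% interval -0.31 to 0.40, adjusted p = 0.996), an interval that leaves out the difference of Gzma, the smallest of the lower members with an unadjusted p under 0.05.

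**Figure D2:**
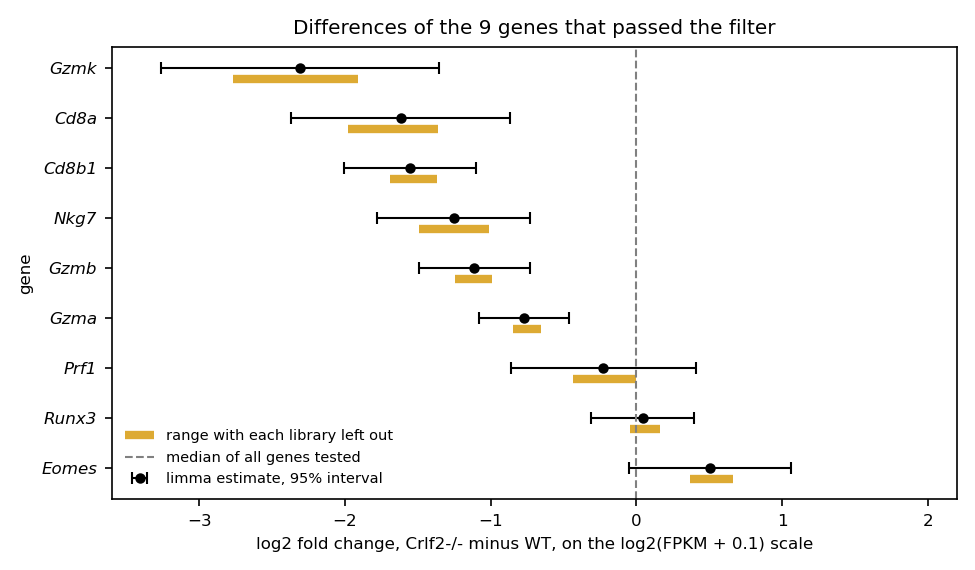
Log2 fold change of Crlf2-/- minus WT on the log2(FPKM + 0.1) scale (x axis) for the 9 genes that passed the filter on low values, with limma estimates as points, 95% intervals as lines, the range of the estimate with each library left out in turn as yellow bars, and the median of all genes tested as a dashed line. Gzmk, Cd8a, Cd8b1, Nkg7, Gzmb and Gzma lie to the left of the dashed line with their whole intervals, while those of Prf1, Runx3 and Eomes cross 0.

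The order of the 10 levels, compared per length as FPKM, differed between the groups. In WT hearts Nkg7 had the highest mean (8.23 FPKM), followed by Cd8b1 (4.16) and Gzma (4.16), then Gzmb (2.84), Cd8a (2.58) and Runx3 (2.51), then Gzmk (1.90), Prf1 (0.674), Eomes (0.278) and Ifng (0.232). Neighbours in this order whose WT libraries overlapped were Cd8b1 and Gzma, Gzmb and Cd8a, Cd8a and Runx3, and Eomes and Ifng. In Crlf2-/- hearts the order began with Nkg7 (3.501 FPKM), Runx3 (2.60) and Gzma (2.40), whose libraries overlapped from neighbour to neighbour. Cd8b1 (1.33) lay apart below Gzma and was followed by Gzmb (1.25), Cd8a (0.818), Prf1 (0.571), Eomes (0.437) and Gzmk (0.345). Neighbours from Cd8b1 to Gzmk overlapped, and Ifng (0.0687) lay apart below them. Runx3 thus moved from the sixth place to the second and Gzmk from the seventh to the ninth.

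The CD3 chains, which carry the T cell receptor signal in all T cells, served as a reference within each library. Their summed FPKM (Cd3d, Cd3e and Cd3g) was 3.58, 4.79 and 2.64 in WT and 1.38, 1.29 and 1.18 in Crlf2-/- libraries, so that the reference itself was lower in every Crlf2-/- heart. Relative to it, Cd8a and Cd8b1 differed little: the log2 ratio of Cd8a was -0.49 ± 0.10 (SD, n = 3) in WT and -0.77 ± 0.65 (SD, n = 3) in Crlf2-/- hearts (exact permutation test, two-sided, p = 0.6), and that of Cd8b1 was 0.19 ± 0.31 and 0.04 ± 0.29 (exact permutation p = 0.6, n = 3 each). Gzmb differed by 0.30 (exact permutation p = 0.6) and Nkg7 by 0.19 (exact permutation p = 0.7), with overlapping groups. The sign of each of these 4 small differences rested on a library: it became 0.01 for Cd8a without Crlf2-/- replicate 2, 0.01 for Cd8b1 without WT replicate 3, -0.04 for Gzmb without WT replicate 2 and -0.12 for Nkg7 without Crlf2-/- replicate 3. Gzma relative to CD3 was 1.11, 0.882 and 1.62 in WT and 1.92, 1.58 and 2.13 in Crlf2-/- libraries on the linear scale, a log2 difference of 0.68 with 1 WT library inside the Crlf2-/- range (exact permutation p = 0.2).

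Prf1, Eomes and Runx3 stood higher against CD3 in all Crlf2-/- libraries. Because the CD3 sum was itself lower in all of them, a gene with a like level in both groups, such as Runx3, rises in this ratio. The linear ratio of Prf1 to CD3 was 0.197, 0.168 and 0.194 in WT and 0.405, 0.295 and 0.654 in Crlf2-/- hearts. That of Eomes was 0.0875, 0.0441 and 0.117 in WT and 0.370, 0.255 and 0.398 in Crlf2-/- hearts, and that of Runx3 was 0.775, 0.505 and 0.886 in WT and 2.11, 2.09 and 1.84 in Crlf2-/- hearts. The log2 differences were 1.20 for Prf1, 2.13 for Eomes and 1.52 for Runx3 (exact permutation test, two-sided, p = 0.1 each, adjusted to 0.3 over the 12 ratios tested). Gzmk went the other way, with a log2 difference of -1.26 (exact permutation p = 0.2), and Crlf2-/- replicate 2 lay inside the WT range. Ifng relative to CD3 differed by -0.35 (exact permutation p = 0.8), and this became 0.10 without Crlf2-/- replicate 2 and 0.45 with a pseudocount of 0.1 in the ratio.

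**Figure D3:**
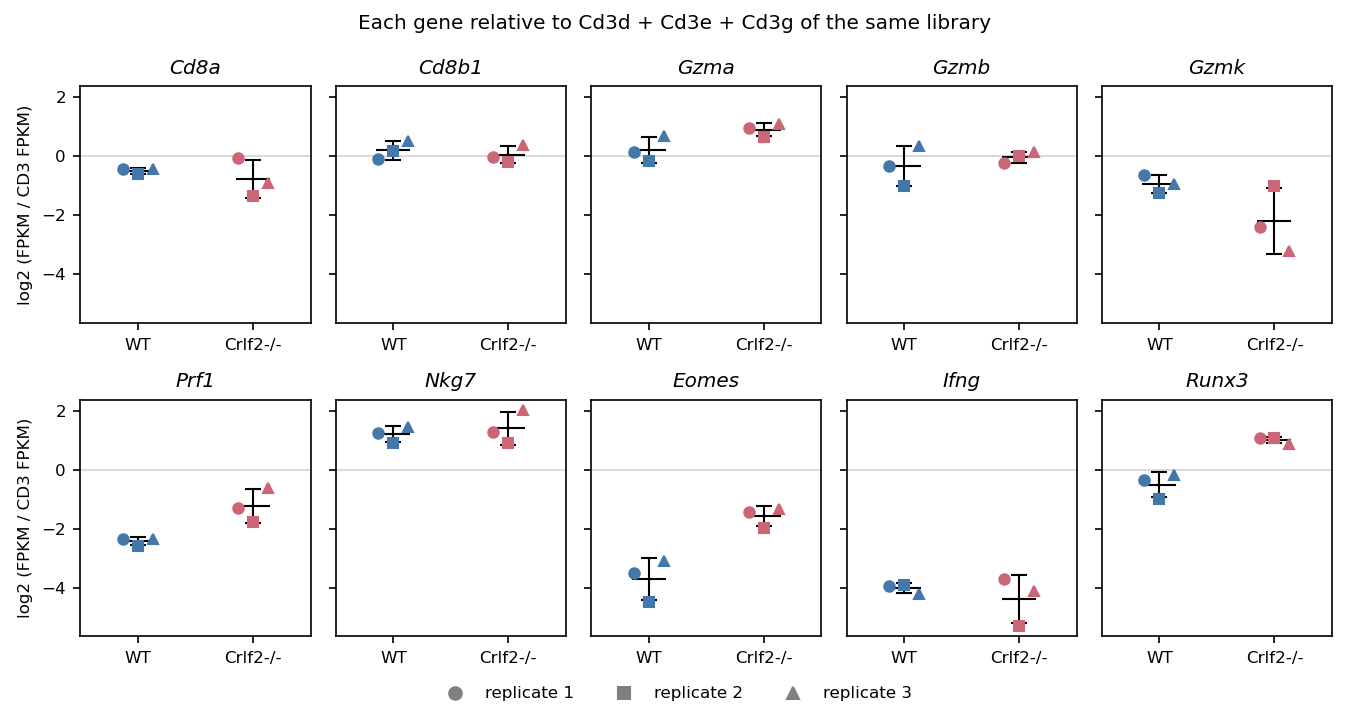
Log2 of the FPKM of each gene divided by the summed FPKM of Cd3d, Cd3e and Cd3g of the same library (y axis, shared by all panels; grey line at 0, where both are equal) in 3 WT (blue) and 3 Crlf2-/- libraries (red), with the mean as long bars, the SD as error bars and symbols for the replicate number. Prf1, Eomes and Runx3 lie higher in all 3 Crlf2-/- libraries, and the groups overlap in the other 7 panels. The CD3 sum itself was lower in all 3 Crlf2-/- libraries.

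The other granzyme genes did not all share the direction of Gzma, Gzmb and Gzmk. Gzmc, Gzmd and Gzme lie on chromosome 14 in the same cluster as Gzmb, with Gzmc 24.2 kb from it, and were higher in Crlf2-/- hearts. Apart from Gzmd, these and the other granzymes below were named after their values were seen. Gzmc had 1.07, 1.19 and 0.972 FPKM in WT and 1.82, 2.30 and 2.23 FPKM in Crlf2-/- hearts, without overlap (log2 fold change 0.91, SE 0.16, adjusted p = 0.149). Gzmd had 0.451, 0.957 and 0.807 FPKM in WT and 1.73, 1.47 and 1.98 FPKM in Crlf2-/- hearts, again without overlap (log2 fold change 1.17, SE 0.26, adjusted p = 0.254). Gzme had 1.09, 3.17 and 1.35 FPKM in WT and 2.26, 4.31 and 3.39 FPKM in Crlf2-/- hearts, where WT replicate 2 lay inside the Crlf2-/- range (log2 fold change 0.90, SE 0.38, adjusted p = 0.748). The sequences of Gzmc, Gzmd and Gzme are closely related, and counting may have divided their fragments among them, which leaves the value of each alone uncertain. The summed FPKM of Gzma, Gzmb and Gzmk was 3.498, 1.61 and 2.88 times that of Gzmc, Gzmd and Gzme in WT libraries and 0.6997, 0.493 and 0.518 times in Crlf2-/- libraries, a grouping chosen after the values were seen. Gzmm, granzyme M, had 36 fragments in each group (log2 fold change 0.05, adjusted p = 0.996). Gzmf, Gzmg and Gzmn had at most 8 fragments in any library and were not tested.

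**Figure D4:**
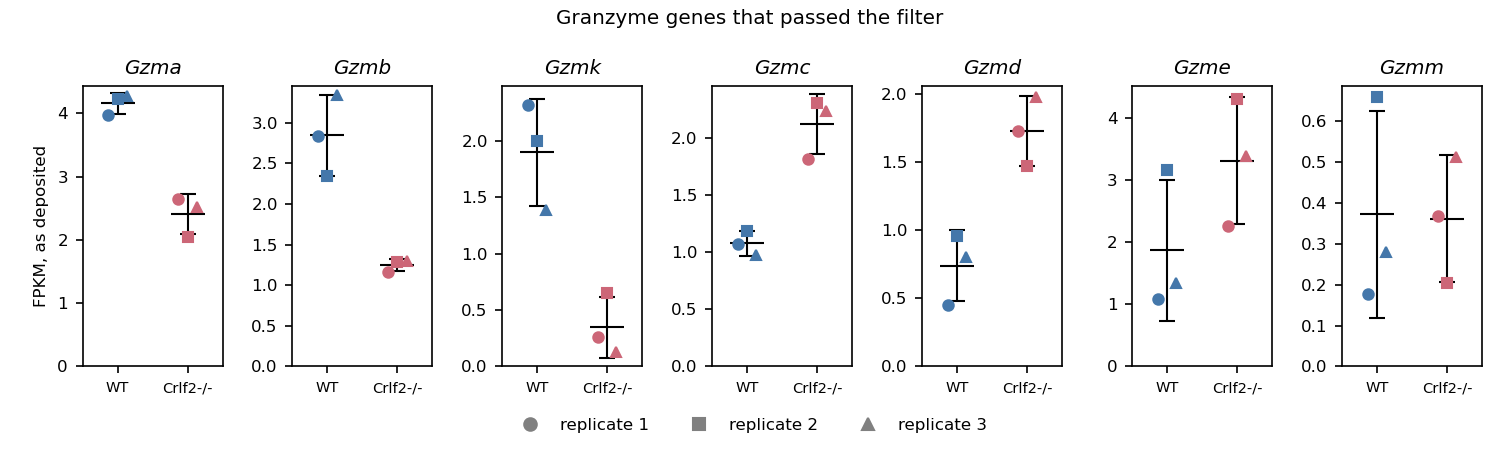
FPKM as deposited (y axis, from 0, with a scale of its own in each panel) of the 7 granzyme genes that passed the filter in 3 WT (blue) and 3 Crlf2-/- libraries (red), with the mean as long bars, the SD as error bars and symbols for the replicate number. Gzma, Gzmb and Gzmk lie lower and Gzmc and Gzmd higher in all 3 Crlf2-/- libraries, while Gzme and Gzmm overlap.

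No gene of the wider pathway lists passed the adjusted threshold, and the counts that follow are at an unadjusted p under 0.05. Among all genes tested, 3.36% were lower and 3.22% higher at that level, so that 1 gene in a list of 15 to 18 lies near the background. Of 18 tested genes of the granule and of death ligands, 3 were lower and 3 higher, the latter Gzmc, Gzmd and Gzme. The lower ones were Ctsw, Fasl and Cst7, of which Fasl and Cst7 were named after their values were seen. Ctsw, cathepsin W, a protease of cytotoxic lymphocytes, had 144, 134 and 104 WT fragments against 57, 59 and 70 in Crlf2-/- libraries (log2 fold change -1.03, SE 0.15, adjusted p = 0.109). Fasl, the ligand of the Fas death receptor, had 20, 31 and 12 WT fragments against 5, 12 and 8 (log2 fold change -0.99, adjusted p = 0.561). Like Gzmk, Fasl passed the filter on low genes only through its WT libraries. The widely expressed granule genes Lamp1 and Ctsc, the most abundant of the list, had log2 fold changes of 0.04 and 0.07, and the median of the 18 was 0.04.

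Of 16 tested genes on the list of transcription factors for cytotoxic lymphocytes, 3 were lower (Tbx21, Hopx and Id2) and 1 was higher (Runx1). This list also holds Zbtb7b, a CD4 lineage factor that is counted in the CD4 lineage list as well. Tbx21, which encodes T-bet, the factor related to Eomes that drives interferon gamma and granzyme expression, had 39, 41 and 20 WT fragments against 22, 14 and 9. WT replicate 3 lay just below Crlf2-/- replicate 1 in fragments of Tbx21, whose log2 fold change was -0.94 (SE 0.33, adjusted p = 0.611). Hopx, Id2 and Runx1, named after their values were seen, had smaller differences of -0.40, -0.34 and 0.24. Cbfb, the partner subunit of the RUNX factors, had a log2 fold change of -0.02.

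Among 17 tested cytokine receptors and signalling genes that feed this programme, Stat4, the mediator of interleukin 12 signals, was the only gene below the unadjusted level. It had 71, 58 and 49 WT fragments against 40, 24 and 32 (log2 fold change -0.77, SE 0.24, adjusted p = 0.514). Il2rg, the shared receptor chain of interleukins 2 and 15, had a log2 fold change of -0.12 and Stat5b one of -0.08. Of 15 tested interferon gamma receptor and response genes, 1 was lower and 2 were higher. Ifngr1, the ligand-binding receptor chain, averaged 65.2 ± 2.14 FPKM in WT and 51.6 ± 1.29 FPKM in Crlf2-/- hearts (SD, n = 3 each), with a log2 fold change of -0.33 (adjusted p = 0.457). Tap1, a peptide transporter for MHC class I, averaged 9.94 ± 0.706 FPKM in WT and 15.4 ± 1.65 FPKM in Crlf2-/- hearts (SD, n = 3 each), with a log2 fold change of 0.62 (adjusted p = 0.162). Tap1 lay higher in all 3 Crlf2-/- libraries, where Ifng lay lower, and it also responds to other interferons.

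Of 9 tested chemokines and receptors of effector lymphocytes, 4 were lower and 0 higher. Ccl5, a chemokine made by effector T and NK cells, had 185, 268 and 261 WT fragments against 134, 118 and 146 (log2 fold change -0.85, SE 0.18, adjusted p = 0.245). Cxcr3 and Cxcr6, receptors that bring effector T cells into tissue, had log2 fold changes of -0.50 and -0.59, and Cd160 one of -0.51; these 3 were named after their values were seen. The median of the 9 was -0.14 and turned to 0.14 without Crlf2-/- replicate 3.

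Other lymphocytes that carry these genes were compared by marker lists. Of 4 tested CD3 complex genes, 4 were lower at an unadjusted p under 0.05, with a median log2 fold change of -1.39. Of 8 markers that define NK cells and are no members, all were tested, 2 were lower (Klra4 and, named after its values were seen, Klra8) and 0 higher. The median of the 8 was 0.08 and its sign rested on single libraries, at -0.19 without WT replicate 2, -0.09 without Crlf2-/- replicate 1 and 0.33 without Crlf2-/- replicate 2. Their summed FPKM was between 6.73 and 8.95 in WT and between 5.21 and 9.56 in Crlf2-/- libraries. The groups thus overlapped in the NK sum, and none of the 8 NK markers was at 0. All Crlf2-/- libraries lay below all WT libraries for 3 of the 8, against 6.45% of all genes tested, and above for 0, against 5.24%. Klrd1, the most abundant of the 8, is a receptor chain of NK cells and activated CD8 T cells. It had 81, 55 and 121 WT fragments against 94, 68 and 101 in Crlf2-/- libraries. Ncr1, an activating NK receptor, had 22, 23 and 10 WT fragments against 49, 12 and 40 (log2 fold change 0.63, SE 0.49, adjusted p = 0.943). Klra4 went the other way, with 47, 34 and 24 WT fragments against 23, 12 and 24 (log2 fold change -0.78, SE 0.31, adjusted p = 0.712). Of 3 tested gamma delta T cell genes, 0 were below the unadjusted level, and Trdc, the delta chain constant gene, had a log2 fold change of 0.53 (adjusted p = 0.867). Type 1 dendritic cells, which present antigen to CD8 T cells, had 8 tested markers with 0 below the unadjusted level and sums of 12.4 to 16.5 FPKM in WT and 14.1 to 15.2 FPKM in Crlf2-/- libraries. The most abundant of these markers, Tlr3 (4.75 FPKM in WT, 5.87 FPKM in Crlf2-/- hearts) and Ifi205 (3.74 and 4.22 FPKM), weigh most in the sums. They were the 2 with a positive log2 fold change, while 6 were negative, and the median was -0.09.

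Other tissue markers moved with the groups too. Of 5 tested red blood cell genes, 5 were lower at an unadjusted p under 0.05, and their list summed to between 226 and 370 FPKM in WT and between 85.0 and 162 FPKM in Crlf2-/- libraries. Of 12 tested cardiomyocyte genes, 4 were lower, with sums of 1141 to 2172 FPKM in WT and 788 to 1509 FPKM in Crlf2-/- libraries. The 9 tested B cell and lymph node genes summed to between 19.0 and 26.3 FPKM in WT and to 10.9, 27.9 and 7.61 FPKM in the Crlf2-/- libraries, with 1 lower. Of 10 thymocyte genes, 2 were tested. Themis, which mature T cells also express, was lower at that level, and Rag2 and Psmb11, singled out afterwards for this, were at 0 in all 6 libraries. The other untested genes of the list were not absent. Prss16 had 18, 3 and 10 WT fragments against 7, 7 and 7. Dntt, Rag1, Foxn1, Ptcra and Aire had at most 5 in any library. Macrophage genes (12 tested, 0 lower and 1 higher) summed to 2516 to 4470 FPKM in WT and 3008 to 3641 FPKM in Crlf2-/- libraries, and fibroblast and matrix genes (10 tested, 1 lower and 0 higher) to 6885 to 8317 FPKM and 8265 to 8525 FPKM, so that both overlapped between the groups. Plasmacytoid dendritic cell genes had 1 lower (Cox6a2) and 1 higher (Bst2) of 6, mast cell and basophil genes 1 lower (Mcpt4) of 4, and CD4 lineage genes 1 lower (Icos) of 3 tested. Cox6a2 averaged 60.9 FPKM in WT and 37.5 FPKM in Crlf2-/- hearts, and Bst2 121 and 201 FPKM. Siglech of the same list, named after its values were seen, had a log2 fold change of 0.00097. Which cells Cox6a2 and Bst2 came from was not tested. Mcpt4 had 11, 10 and 15 WT fragments against 5, 7 and 3 in Crlf2-/- libraries. Like Gzmk, it passed the filter on low genes only through its WT libraries. The part of the red blood cell and cardiomyocyte differences in the values of the members was not tested.

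**Figure D5:**
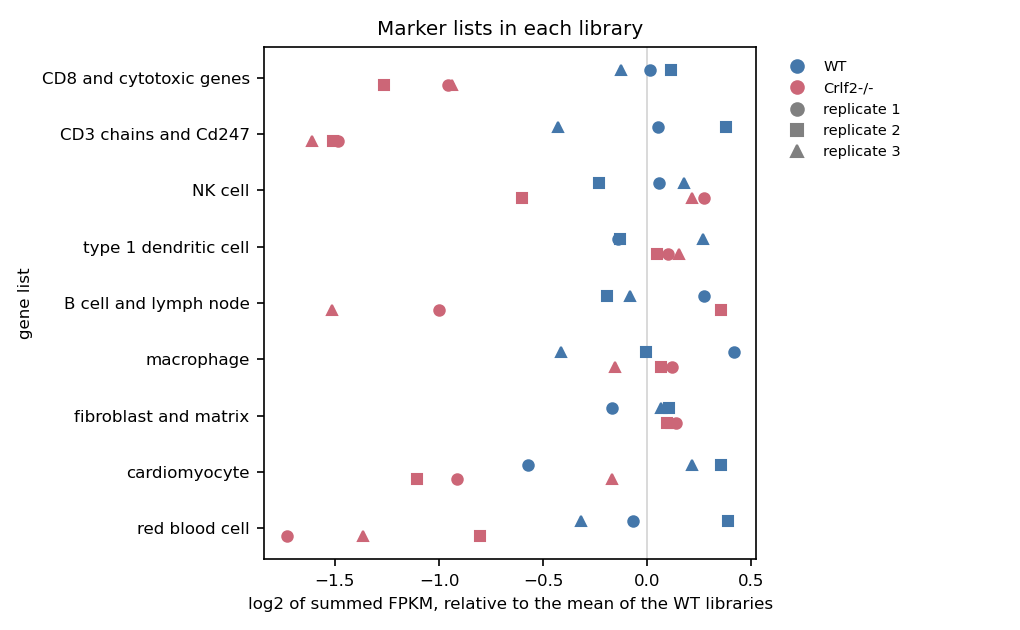
Log2 of the summed FPKM of 9 gene lists in each library relative to the mean of the 3 WT libraries (x axis; grey line at 0), with WT in blue, Crlf2-/- in red and symbols for the replicate number. The CD8 and cytotoxic genes, the CD3 genes and the red blood cell genes lie lower in all 3 Crlf2-/- libraries, while the other 6 lists overlap between the groups.

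The genes whose pattern over the 6 libraries was most like the mean of the 10 members were Bcl11b, Ms4a4b, Ptprcap, Themis, Zap70 and Rab19. Likeness was measured as the root mean square distance between profiles of log2(FPKM + 0.1) centred on each gene, over 6 libraries, and it was 0.0886 for Bcl11b and 0.135 for Rab19, against a median of 0.509 over all genes tested. The members lay at 0.129 (Gzma) to 0.899 (Gzmk) from their own mean. Bcl11b, a transcription factor of T cells, had a log2 fold change of -0.85 (adjusted p = 0.369), and Ms4a4b, a membrane protein of T cells, one of -0.83 (adjusted p = 0.254). Ptprcap, which associates with CD45, was at 4.69 FPKM in WT and 2.38 FPKM in Crlf2-/- hearts on average (log2 fold change -0.93, adjusted p = 0.149). Zap70, the kinase that docks to phosphorylated CD3 chains, had a log2 fold change of -0.90 (adjusted p = 0.355). These genes were picked for their likeness, so their differences are a description.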

How the data were processed

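Heart RNA of 3 WT and 3 Crlf2-/- mice was sequenced by the study. The authors trimmed the paired reads with fastp, aligned them with HISAT2 2.0.5, assigned fragments to genes with featureCounts and deposited, for every gene, its length and an FPKM per library. The labels' processing notes name mm10 and hg38; gene positions matched GENCODE M21 (GRCm38) for 53585 of the 54495 shared genes, all 10 members among them. The deposited FPKM multiplied by gene length were whole multiples of 1 step per library for 100% of nonzero values (tolerance 0.1), which gave the fragments. FPKM are scaled to the library and carry its counting error, so low genes are imprecise; intervals on pooled fragments are exact binomial ones and cover counting error only.

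After scaling by the trimmed mean of M values, log2(FPKM + 0.1) was fitted with limma 3.58.1 (lmFit, and eBayes with trend and robust) in R 4.3.3, Crlf2-/- minus WT without covariates, on the 15520 genes with 10 or more fragments in 3 or more libraries and a total of 15 or more. P-values were adjusted by Benjamini-Hochberg over all of them. Calls needed an adjusted p of 0.05 or less together with an absolute log2 fold change of 0.5 or more, as in the study's methods. Ratios were tested with exact two-sided permutation tests. The fit was tested on simulated data first. Python 3.11.15, pandas 2.3.3, numpy 2.4.6, scipy 1.17.1 and matplotlib 3.10.9 served the remaining steps.

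The members and gene lists were chosen with earlier results of these data known. Named genes were all members, Crlf2, Cd3d, Cd3e, Cd3g, Cd4, of each list the 2 most abundant and the 2 with the largest fold, and the 6 genes nearest to the members' mean profile; not all of them are described. Other genes were named after their values were seen, among them further granzymes, Esm1 and genes singled out for being at 0. Results that need items withheld for evaluation are not reported here. Alternatives were other scalings, pseudocounts and filters, voom on the fragments, a replicate block and leaving out each library; voom without each library was added after seeing the data. Promoter windows came from a RefSeq table of GRCm38.p6, which holds none for Cd8b1; stretches inside GENCODE exons were not printed.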

Additional observations from a re-analysis of the deposited data

How the results depend on the processing

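The tested members kept the direction of their log2 fold change under the other scalings, filters and pseudocounts, voom and the block (Gzmk was not tested with at least 10 fragments in every library, where 5 members were lower at an unadjusted p under 0.05), and with each library left out the exception was Runx3, at -0.0039 without WT replicate 3 and -0.043 without Crlf2-/- replicate 1 (range -0.043 to 0.165). In 7 members every Crlf2-/- library lay below all WT libraries, which leaving out a library cannot undo. In all limma and voom fits that left out a library, 6 members had an unadjusted p under 0.05 in the lower direction. Eomes was higher with an unadjusted p of 0.0356 without Crlf2-/- replicate 2 and of 0.0496 with at least 10 fragments in every library. With a pseudocount of 1 the log2 fold changes of Gzmk, Cd8a, Eomes and Prf1 were -1.11, -0.99, 0.17 and -0.09. The median of the members was -0.76 with a pseudocount of 1 and -1.20 to -0.99 with each library left out. Members called were 0 with limma; with voom they ranged from 0 to 1 when a library was left out, the 1 being Cd8a without WT replicate 3 (adjusted p = 0.0380, over a range of 0.0380 to 0.670 for Cd8a in such fits). Genes called over all tested were 2, and 6 without a filter, 1 with at least 10 fragments in every library, 4 with at least 15 in total and 3 with voom. With each library left out they ranged from 1 to 14 with limma (8 without WT replicate 3, 14 without Crlf2-/- replicate 1, and 1 without WT replicate 1, WT replicate 2 or Crlf2-/- replicate 3) and from 2 to 47 with voom (47 without WT replicate 3, 5 without WT replicate 1, 9 without Crlf2-/- replicate 1 and 4 without Crlf2-/- replicate 3). What causes these shifts was not tested.

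The CD3 ratios of Cd8a and Cd8b1 turned to 0.051 and 0.179 against Cd3e alone, and that of Ifng to 0.445 with a pseudocount of 0.1. With single libraries left out, the log2 differences ranged from -0.631 to 0.011 for Cd8a, -0.314 to 0.013 for Cd8b1, -0.044 to 0.641 for Gzmb, -0.116 to 0.445 for Nkg7 and -0.680 to 0.104 for Ifng relative to CD3, and from -0.523 to 0.098 for Cd8a relative to Cd8b1. The median of the effector chemokine list ranged from -0.372 to 0.139.

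The groups share replicate numbers. Between libraries of the same number, the deviations from the group means had correlations of -0.016, 0.115 and 0.120, and only Crlf2-/- replicate 2 was the best match of the WT library of its number, so the numbers are treated as names only. With the replicate block 4 genes and 0 members were called. With 3 mice a group and 33 fragments of Gzmk and 6 of Ifng in all Crlf2-/- libraries, depth limits these 2 members most.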
